A study of Rattus norvegicus with 2 samples.

Results

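The thin filament of striated muscle was followed through 10 genes in esophageal tissue of rats given the histone deacetylase inhibitor OSU-HDAC42 or vehicle: the fast troponins Tnnt3, Tnni2 and Tnnc2, the slow troponins Tnnt1, Tnni1 and Tnnc1, the tropomyosins Tpm1, Tpm2 and Tpm3, and skeletal actin Acta1. A gene was taken as measured when the platform annotation tied a probe set to it and to no other gene. All 10 were found, of 14217 genes measured in all, and they were represented by 30 of 31042 non-control probe sets. The animals were male Sprague-Dawley rats, 5 to 6 weeks old on purchase. The treated group received 7 oral doses of OSU-HDAC42 at 50 mg/kg, 350 mg/kg in total, the control group received vehicle on the same schedule, and esophagi were collected on day 15, at 24 hours from the final dose. Each group had 1 array. Whether its RNA came from 1 rat or a pool is not in the labels, nor are the layers of the esophagus that were taken. Without replicates no value has an error between animals, and no difference has a p-value.

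The thin filament is a polymer of actin along which tropomyosin coils, with a troponin complex at regular intervals. Troponin C binds calcium, troponin I holds contraction off at rest, and troponin T ties the complex to tropomyosin. When calcium binds, tropomyosin shifts on the actin surface and myosin heads can attach. Fast and slow skeletal muscle fibres use different genes for each troponin subunit. Tropomyosins are also made by smooth muscle and by non-muscle cells through alternative promoters and exons. In the rat the muscle coat of the esophagus is largely striated, next to a smooth muscle layer of the mucosa.

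Values are probe set intensities in arbitrary units as deposited. A difference is the log2 value of the OSU-HDAC42 sample minus that of the vehicle sample, with intensities under 16 raised to 16 beforehand. A gene is represented by its brightest probe set. The expression floor was an intensity of 49.1, the middle value of all non-control probe sets, taking for each the geometric mean of both arrays, and a gene was counted as 2-fold lower or higher only when its higher array reached it. Levels of different probe sets are not compared, since each binds its own transcript with its own strength. Over the 9560 genes above the floor the median difference was -0.027 (SD 0.48). Within a gene, probe sets varied around their mean difference with a pooled SD of 0.29 over 2126 genes. That SD holds probe noise and any differences between transcripts of a gene, and no variation between animals. The 3' to 5' intensity ratio of control probe sets is a measure of RNA integrity. It was 6.29 for beta-actin and 2.09 for GAPDH on the OSU-HDAC42 array, against 7.76 and 2.32 on the vehicle array. Both ratios were thus higher on the vehicle array. Whether probe position along the transcript had a part in differences between probe sets of a gene was not tested.

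The fast troponins and skeletal actin were lower by about the same factor in the OSU-HDAC42 sample. The slow troponins, with signals near or below the expression floor, were not lower. Tnnt3, Tnni2 and Acta1 were each more than 2-fold lower and Tnnc2 lay just short of that size. The tropomyosins gave no single direction: probe sets of Tpm1 and those of Tpm2 went opposite ways, and those of Tpm3 were mostly higher. Of the 10 genes, 9 were above the floor, and 3 of those 9 passed 2-fold in the lower direction, as did 3.17% of all genes above the floor. None of the 9 passed it in the higher direction, as did 1.88% of all genes above the floor. The median difference of the 10 genes was -0.35.

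**Figure D1:**
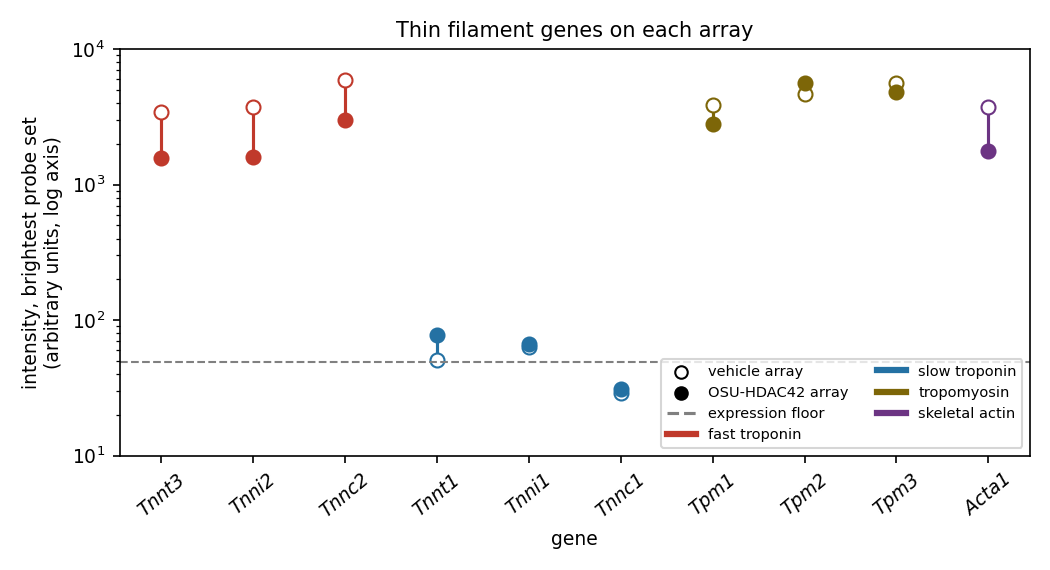
Intensity (log axis, arbitrary units) of the brightest probe set of each of the 10 genes on the vehicle array (open circles) and on the OSU-HDAC42 array (filled circles), 1 array each, with the expression floor of 49.1 as a dashed line. The fast troponins (red) and Acta1 (purple) are lower on the OSU-HDAC42 array, the slow troponins (blue) lie near or below the floor, and the tropomyosins (olive) go both ways. Heights of different genes are not comparable.

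Tnni2, the fast inhibitory subunit, read 1588 after OSU-HDAC42 and 3763 after vehicle. This was the largest decrease among the 10 genes, 2.37-fold (-1.24), and it was 155th from the lowest among the 9560 genes above the floor. Tnnt3, the fast tropomyosin-binding subunit, stood at 1567 against 3465, 2.21-fold lower (-1.14, 200th from the lowest). Its second probe set was under 16 on both arrays, at 6.68 and 7.78, and gave no measurement. Tnnc2, the fast calcium-binding subunit, stood at 3016 against 5954, 1.97-fold lower (-0.98, 321st from the lowest). The 3 fast subunits thus lay between 42.2% and 50.7% of their vehicle intensity. Acta1, the actin of skeletal muscle thin filaments, stood at 1784 against 3719, 2.08-fold lower (-1.06, 247th from the lowest). Around the 2-fold threshold, Acta1 at -1.06 was the gene just inside and Tnnc2 at -0.98 the gene just outside. Tnni2, Tnnc2 and Acta1 were each measured by 1 probe set, so their values cannot be set against another probe set of the same gene.

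Such decreases were uncommon among bright genes. The brightness limit used here, a mean intensity of 1000, was chosen after the values were seen. Of 2266 genes at or above it, 0.485% (11 genes) were at least 2-fold lower, and Tnni2, Tnnt3 and Acta1 were 3 of these 11. The differences of these bright genes had an SD of 0.30. The other 8 included 5 genes known from skeletal muscle: the perinatal myosin heavy chain Myh8 (3.28-fold lower), the muscle enolase Eno3, the calcium release channel Ryr1, the muscle creatine kinase Ckm and the myosin light chain Myl3 (2.41-fold lower). The remaining 3 were Aox4, the desmosomal cadherin Dsc1 and the small GTPase gene Rhou, at 3.46-fold, 2.45-fold and 2.05-fold lower.

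**Figure D2:**
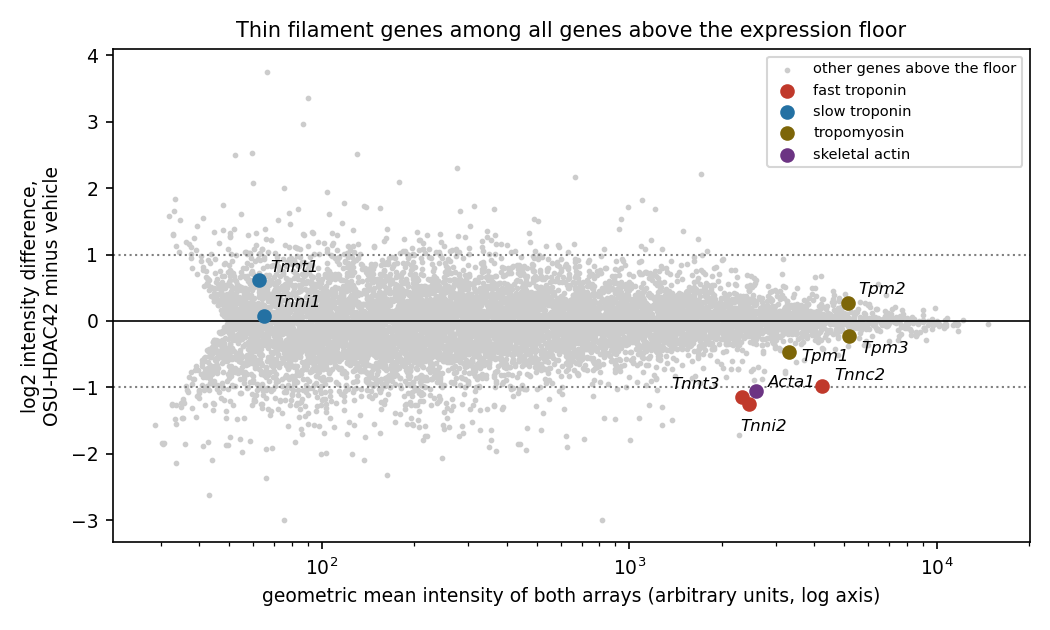
Log2 intensity difference (OSU-HDAC42 minus vehicle) against the geometric mean intensity of both arrays (log axis, arbitrary units) for all 9560 genes above the expression floor (grey), with the 9 thin filament genes above it in colour. The fast troponins and Acta1 lie near or past the dotted 2-fold line at the bright end, where few genes do. Tnnt1 and Tnni1 lie at the dim end, where differences of all genes are wide.

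The slow troponins gave low signals. Tnnt1, the slow tropomyosin-binding subunit, read 77.7 after OSU-HDAC42 and 50.7 after vehicle, 1.53-fold higher (0.62). Tnni1, the slow inhibitory subunit, stood at 66.8 against 63.3 (0.078) on its brighter probe set and at 37.3 against 33.8 (0.14) on the other, which was below the floor. Tnnc1, the calcium-binding subunit of slow and cardiac muscle, stood at 30.9 against 28.9 (0.094), below the floor on both arrays. All 4 probe sets of these genes were slightly to moderately higher on the OSU-HDAC42 array, and none reached 2-fold. Among the 2815 genes with a mean intensity from 25 to 100, a range chosen after the values were seen to hold these 3 genes, the differences had an SD of 0.58. In that range 5.58% of genes were at least 2-fold lower and 3.09% at least 2-fold higher, whatever the floor. The Tnnt1 difference of 0.62 is thus close to 1 SD of genes of like intensity. No detection call came with the values, so how much of these dim signals is background was not tested.

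Set against each other by subunit, the fast gene was lower relative to the slow gene each time. The slow troponins read near or below the floor on both arrays, so a decrease in them may have gone unseen. Other slow fibre genes above the floor, described below, had a median of -0.71. Whether the shift is particular to fast fibre genes was not tested. For troponin T the fast difference minus the slow difference was -1.76, a 3.39-fold shift. For troponin I it was -1.32 (2.50-fold), and for troponin C it was -1.08, with no fold given because neither array reached the floor for Tnnc1. The median over the 3 fast troponins was -1.14, that over the 3 slow troponins 0.094, and the median of the 3 shifts -1.32. By construction, an overall scaling of either array cancels in this shift. Of the cardiac troponin genes, Tnnt2 stood at 59.6 against 50.2 (0.25), and Tnni3 was under 16 on both arrays.

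To show the sequence upstream of genes that were lower together, the window from 250 bases before to 50 bases after the RefSeq transcript start is printed for Acta1, Tnni2 and Tnnc2, with that of the slow Tnnt1 for comparison. The windows come from RefSeq on rat build GRCr8, 5' to 3' on the gene's strand. Of the 10 genes, 8 had such a window, and Tpm3 had 3 of them. Tnnt3 and Tnnc1 had none. Capitals mark matches, on either strand, to the CArG box (bound by serum response factor), the MEF2 site, the M-CAT element CATTCC, the TATA motif TATAAA and the E-box CANNTG (bound by myogenic bHLH factors).
Acta1 (chr19:68784145-68784444, minus strand): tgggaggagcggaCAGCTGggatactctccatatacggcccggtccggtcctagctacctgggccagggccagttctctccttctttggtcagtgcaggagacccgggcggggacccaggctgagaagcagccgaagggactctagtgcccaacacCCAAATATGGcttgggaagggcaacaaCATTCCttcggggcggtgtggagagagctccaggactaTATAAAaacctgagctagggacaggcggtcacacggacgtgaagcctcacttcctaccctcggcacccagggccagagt
Tnni2 (chr1:207024240-207024539, plus strand): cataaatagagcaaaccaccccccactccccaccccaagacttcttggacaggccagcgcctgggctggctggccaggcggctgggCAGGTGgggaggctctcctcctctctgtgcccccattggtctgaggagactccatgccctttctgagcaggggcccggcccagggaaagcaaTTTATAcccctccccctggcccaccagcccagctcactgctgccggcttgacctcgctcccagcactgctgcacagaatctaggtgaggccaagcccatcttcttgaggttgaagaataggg
Tnnc2 (chr3:173935290-173935589, minus strand): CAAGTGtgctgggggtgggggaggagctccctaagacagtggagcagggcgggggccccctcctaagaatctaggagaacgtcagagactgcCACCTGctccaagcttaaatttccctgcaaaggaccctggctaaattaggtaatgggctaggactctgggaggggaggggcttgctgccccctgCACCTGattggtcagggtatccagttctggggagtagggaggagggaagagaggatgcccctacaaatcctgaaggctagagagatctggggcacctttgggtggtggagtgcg
Tnnt1 (chr1:78348785-78349084, plus strand): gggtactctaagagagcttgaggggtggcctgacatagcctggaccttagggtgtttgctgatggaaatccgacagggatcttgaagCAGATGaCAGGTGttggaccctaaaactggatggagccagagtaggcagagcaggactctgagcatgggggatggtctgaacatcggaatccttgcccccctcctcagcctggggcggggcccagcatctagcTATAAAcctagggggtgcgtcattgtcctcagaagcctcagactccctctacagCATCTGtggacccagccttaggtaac
Acta1 held a CArG box whose first base lies at -94 from the start site, written CCAAATATGG, an M-CAT element at -67, a TATAAA at -29 and an E-box at -237. A CArG box was present in 1.64% of 33469 windows of this length, M-CAT in 14.2%, TATAAA in 14.2%, an E-box in 72.1% and a MEF2 site in 3.29%. Tnni2 held 1 E-box at -164 and TATAAA on the other strand at -72. Tnnc2 held 3 E-boxes, at -250, -158 and -64. The slow Tnnt1 held TATAAA at -30 and 3 E-boxes, at -163, -156 and 25, and the slow Tnni1, not printed, also held 3 E-boxes. Among these 5 windows the CArG box and the M-CAT element were matched in Acta1 alone, and no MEF2 site was matched in any of them. The Tpm1 window, not printed, also held an M-CAT element, at -31. None of these matches separated the fast from the slow troponin genes, and matches are descriptions of letters and not of binding.

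The tropomyosins were measured by several probe sets each. Within Tpm1 and Tpm2 these disagreed by more than the usual spread between probe sets, and within Tpm3 they mostly went the same way. Tpm1, the alpha-tropomyosin of striated and smooth muscle, had 6 probe sets above the floor, of which 4 were lower and 2 higher. Its brightest, 1370288_a_at, stood at 2800 on the OSU-HDAC42 array against 3882 on the vehicle array (-0.47). The next in brightness, 1370287_a_at, went the other way, at 3517 against 3041 (0.21). Probe sets 1371241_x_at, 1368724_a_at and 1371240_at were lower by nearly the factor seen for the fast troponins: 1863 against 3644 (-0.97), 1442 against 2725 (-0.92) and 978 against 1770 (-0.86). The remaining one, 1395794_at, stood at 168 against 128 (0.39). The differences thus spanned 1.36 within the gene. Such a range is wider than an SD by nature, so the pooled SD of 0.29 between probe sets is only a rough guide to it. The suffix _a_at marks probe sets shared by alternative transcripts of a gene, and _x_at those with probes that may bind other genes. Which tropomyosin transcripts each probe set binds was not analysed here.

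Tpm2, the beta-tropomyosin of muscle, showed the same kind of split with 2 probe sets. The brighter, 1372219_at, stood at 5659 against 4684 (0.27). The other, 1392976_at, stood at 1007 against 2201, 2.19-fold lower (-1.13). The brighter probe set was thus higher and the other lower, and which transcripts each binds was not analysed. The gap between them was 1.40. When the gene was summarised by the median of its probe sets, the Tpm2 difference turned from 0.27 to -0.43.

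Tpm3, whose muscle form belongs to slow fibres and whose shorter forms are found in most cells, had 12 probe sets, 8 of them above the floor. Of those 8, 7 were higher and 1 lower on the OSU-HDAC42 array. The brightest, 1387617_at, was the lower one, at 4805 against 5612 (-0.22), and the next, 1383986_at, was nearly level, at 5182 against 4982 (0.057). The other 6 were higher by 0.18 to 0.61, with 1370339_at at 2325 against 1872 (0.31) and 1371239_s_at at 141 against 92.0 (0.61). No Tpm3 probe set was as low as those of the fast troponins, and summarised by the median of its probe sets Tpm3 differed by 0.30 in place of -0.22. The median over the 3 tropomyosin genes was -0.22 by the brightest probe set and -0.43 by the median of each gene's probe sets.

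**Figure D3:**
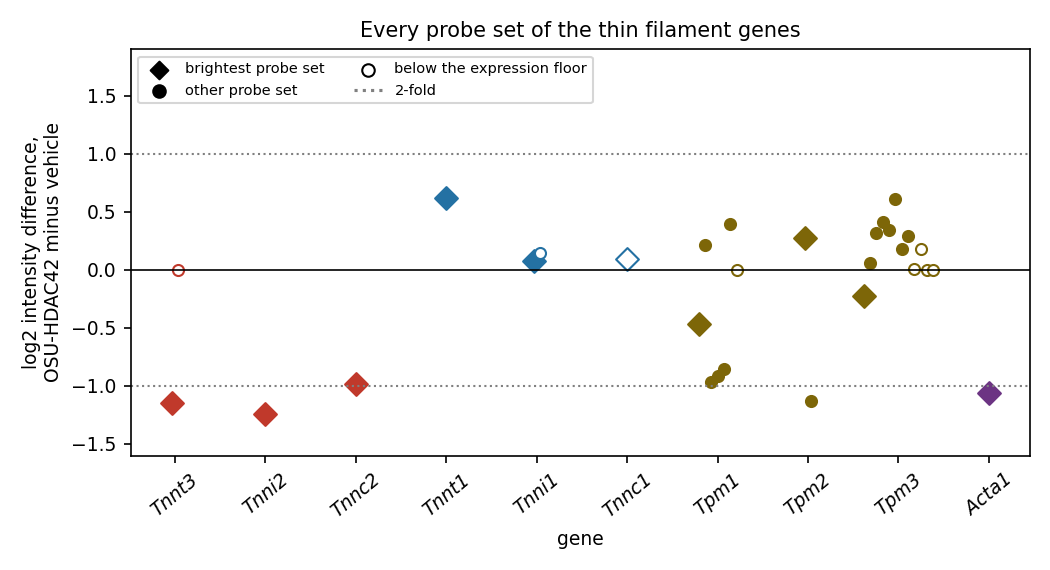
Log2 intensity difference (OSU-HDAC42 minus vehicle) of all 30 probe sets of the 10 genes, 1 point each, in red for fast troponins, blue for slow troponins, olive for tropomyosins and purple for Acta1. Diamonds are the brightest probe set of a gene, open symbols are below the expression floor, and dotted lines mark 2-fold. Probe sets of Tpm1 and Tpm2 fall into a group above 0 and a group lower than it, and those of Tpm3 lie mostly above 0.

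Over all 30 probe sets, 22 were above the floor, 4 lay between 16 and the floor, and 4 were under 16 on both arrays. Of the 22, 4 were at least 2-fold lower: those of Tnni2, Tnnt3 and Acta1 and probe set 1392976_at of Tpm2. The same held for 2.81% of all 12343 single-gene probe sets that reached the floor.

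Beside the 10 genes, a list of proteins that cap, measure or stabilise the thin filament was examined, with 19 of 22 genes measured. The list fell into parts: 6 of the 19 genes were at least 2-fold lower and none was 2-fold higher, beside 3.17% and 1.88% of all genes above the floor. The list median was -0.12, with Tnni3 and Fhod3 below the floor, and the 17 genes above it had a median of -0.81. The lower genes are known mainly from striated muscle. Nrap, which anchors actin filaments at the ends of myofibrils, stood at 49.5 against 199 (4.01-fold lower). The leiomodins, which nucleate and lengthen thin filaments at their pointed ends, were lower with Lmod3 at 51.9 against 206 (3.98-fold) and Lmod2 at 29.3 against 101 (3.44-fold). Klhl41 and Klhl40, which stabilise nebulin and leiomodin 3, were 2.58-fold and 2.38-fold lower, and the actin-binding repeat protein Xirp1 was 2.17-fold lower. Neb, the giant protein that spans the thin filament, read 1372 against 2650 (-0.95) on the brightest of its probe sets, and its other probe sets differed by -1.15 and -2.29. The pointed-end caps Tmod4 and Tmod1 differed by -0.97 and -0.81. Of the rest, shown after their values were seen, the barbed-end capping proteins Capza1, Capza2 and Capzb, which most cells make, differed by 0.11, 0.22 and 0.28, the muscle cofilin Cfl2 by -0.035 and the widely made tropomyosin Tpm4 by -0.12. With probe sets of a gene summarised by their median, the list median was -0.58. This is the value of Pdlim7, whose probe sets differed by -0.11 and -1.05.

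The other actins went the opposite way to Acta1. Acta2, the actin of vascular smooth muscle, stood at 784 against 509 (0.62). Actg2, the actin of enteric smooth muscle, stood at 3157 against 1975 (0.68), and the cytoplasmic Actg1 at 3698 against 3281 (0.17). Acta1 was the only one of the 4 measured actins to be lower.

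The fast and slow troponins were set beside other genes of fast and slow fibres, without the thin filament genes. All 15 measured fast fibre genes were lower, 11 of them at least 2-fold, with a median of -1.32. Over all genes above the floor, 52.8% were lower by any amount and 3.17% by at least 2-fold. The fast alpha-actinin Actn3 stood at 66.5 against 283 (4.25-fold lower), the calcium pump of fast fibres Atp2a1 at 343 against 1138 (3.31-fold) and the fast myosin-binding protein Mybpc2 at 121 against 401 (3.31-fold). Named after their values were seen, the calcium buffer Pvalb differed by -0.051, and the myosin heavy chain Myh1 by -0.29 on its brightest probe set and by -0.62 to -0.80 on its others. Of the 12 measured slow fibre genes 7 were lower and 5 higher, 4 were at least 2-fold lower, and the median was -0.097. That median includes 3 genes below the floor, Myh7, Myl2 and Ankrd2, and the 9 genes above it had a median of -0.71. Both medians, and the 5 higher genes, also include Sox6 (0.18), named after its value was seen. Sox6 is a known repressor of slow fibre genes and not itself such a gene. Unlike the 3 slow troponins, the slow list held genes well below their vehicle values. The ventricular and slow myosin light chain Myl3 was 2.41-fold lower, Myoz2, a calcineurin-binding Z-disc protein, 2.76-fold, the slow myosin-binding protein Mybpc1 3.60-fold and Csrp3 2.23-fold. Myh7, the slow myosin heavy chain, had intensities of 15.3 and 16.8, and the slow light chain Myl2 had 19.3 and 17.8, so both defining slow genes were below the floor, as Tnnc1 was. The calcium pump Atp2a2, which other cells also make, differed by 0.010.

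Markers of skeletal and smooth muscle differed in opposite directions, and those of other cell types differed to varying degrees. Of 11 measured skeletal muscle markers 10 were lower, with a median of -0.90. For the counts by direction given here, 52.8% of all genes above the floor were lower by any amount. The summed intensity of the skeletal muscle markers was 10156 on the OSU-HDAC42 array against 17100 on the vehicle array. Desmin, Des, made by smooth muscle too, was the exception at 0.60. The skeletal markers Myh1, Myh2, Myh4, Myl1 and Mb were also in the fast or slow fibre lists, so these lists are not independent. All 10 smooth muscle markers were higher, with a median of 0.62 and summed intensities of 18039 against 12045. Such sums weigh the brightest probe sets most and do not measure the amount of muscle transcript. Among them Tagln was 2.36-fold higher. Synpo2 was 2.83-fold higher on its brightest probe set, while another of its probe sets stood at 319 against 434 (-0.44). Of 6 cardiac markers, Tnni3, Nppa and Myl7 were under 16 on both arrays, Myh6 was below the floor, and Myl4 and Tnnt2 differed by -0.85 and 0.25. Of 5 keratinocyte markers, the keratins Krt5, Krt14, Krt4 and Krt13 of the esophageal lining differed by -0.077 to 0.063, and the cornified envelope precursor Ivl stood at 293 against 194 (1.51-fold higher). All 6 fibroblast markers were higher, by 0.011 to 0.94, though Col3a1 (0.011) and Lum (0.056) were nearly level. All 3 markers of dividing cells were higher too, by 0.42 to 0.81. Of 4 endothelial markers 2 were lower and 2 higher, with a median of 0.041. The part of these shifts in the tropomyosin split and in the troponin decrease was not tested. In whole tissue, fewer muscle fibres and less of a transcript per fibre cannot be told apart.

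**Figure D4:**
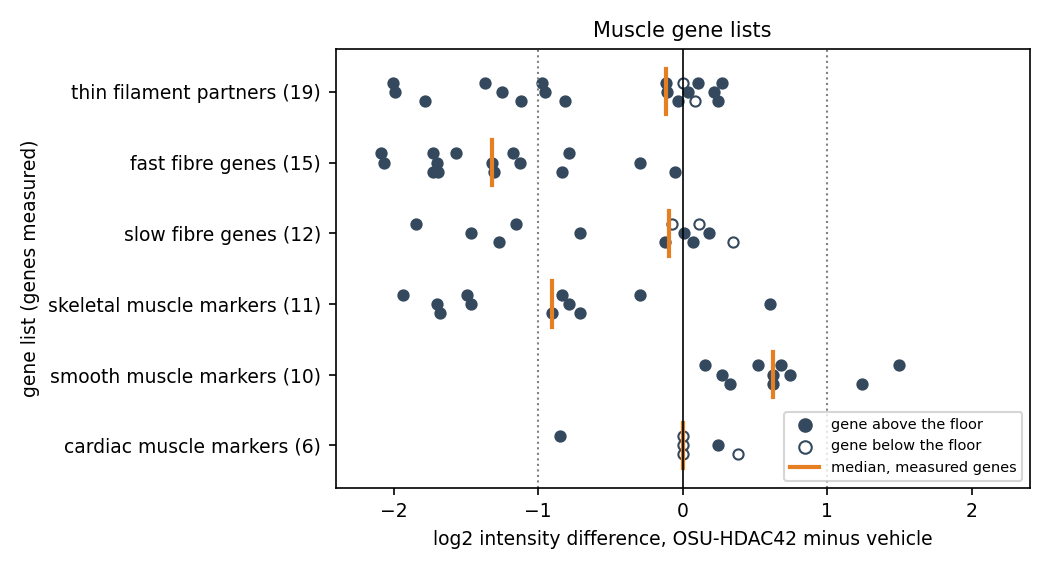
Log2 intensity difference (OSU-HDAC42 minus vehicle) of each measured gene in 6 muscle gene lists, 1 point per gene, open where the gene is below the expression floor, with the median of the measured genes as an orange bar and dotted lines at 2-fold. The 15 fast fibre genes all lie below 0 and the 10 smooth muscle markers all above it, while the thin filament partners and the slow fibre genes spread from slightly above 0 to beyond 2-fold lower.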

How the data were processed

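Affymetrix 230 2.0 arrays (type per the series design text) measured 1 sample per group. Each deposited value is a linear intensity of a probe set, a unit read from the values. The tools GCOS and RMA come without role or order per the submitters' processing notes, and how arrays were scaled to each other is not given in the sources used here. Of 31099 probe sets, 57 controls were left out. The other probe sets carried 1 symbol in 20826 cases, several in 436 and none in 9780, and only the first kind was used, with symbols updated by gene ID through the GRCr8 RefSeq table (14167 of 14217 genes matched). Intensities under 16 were raised to 16 (28.4% and 29.2% of probe sets on the OSU-HDAC42 and vehicle arrays), and log2 was taken. Python 3.11.15, pandas 2.3.3 and statsmodels 0.14.6 were used, and the counting was tested on simulated data. With 1 array per group no test was possible, so precision is limited by the number of arrays. All 10 genes were named, and up to 8 genes a list, those with the largest differences above the floor, plus exceptions that define a list. Members and lists were chosen with earlier results of these data known.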

Additional observations from a re-analysis of the deposited data

How the results depend on the processing

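In all, 10 alternatives were run. The fold thresholds and the higher floor changed counts only, so they could not reverse a difference. None of the others reversed a difference of at least 2-fold. The values of Tnni2, Tnnt3 and Acta1 could change only with the scaling, since each was bright and had 1 usable probe set. Over the alternatives for scaling, raised values and probe sets, the fast troponin median lay between -1.17 and -1.12, the slow troponin median between 0.078 and 0.12, and the median fast minus slow shift between -1.39 and -1.32. The median over probe sets moved the thin filament partner median to -0.58, which is the value of Pdlim7 with its second probe set included. The 1.5-fold threshold gave 4 of the 10 genes lower and 1 higher, and 1042 genes lower and 725 higher overall. The 3-fold threshold gave 0 of the 10 genes lower, and 57 lower and 31 higher overall. The floor at the 75th percentile gave 119 lower and 75 higher, against 303 and 180, since fewer genes passed it. Of 70 values for the 10 genes, 68 stayed within the pooled SD between probe sets of a gene, and the exceptions were Tpm2 and Tpm3. No paired analysis was possible because there was 1 array per group. Low signal limits Tnnc1, Tnni1 and Tnnt1 most.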
